A study of Homo sapiens with 8 samples.

Results

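The genes described here are 8 keratins (KRT7, KRT8, KRT17, KRT18, KRT19, KRT34, KRT80 and KRT81) and 1 keratin-associated protein gene, KRTAP2-3, in LX-2 cells, an immortalized human hepatic stellate cell line. They are 9 of 25369 genes in the tables, and all 9 were among the 14570 genes that had enough counts to be tested. KRT34 and KRTAP2-3 were chosen by their higher counts on the stiff matrix, so their difference between the matrices is a description and carries no test here. KRT17 and KRT19 had too few counts for firm statements, at most 40 and 15 counts in a library.

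The wild type cells were grown on a hydrogel of 2 kPa (soft matrix) or 40 kPa (stiff matrix) for 2 or 4 days, with 2 libraries in each of the 4 conditions, and no agent was added in any of them. Such gels were used to ask how matrix stiffness changes the transcriptome of stellate cells. The sources describe at least 2 biological replicates, and p-values measure only the spread between these libraries. Total counts lay between 19955975 and 27263935 per library.

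Keratins are the intermediate filament proteins of epithelial cells. A filament needs an acidic type I chain and a basic type II chain in pairs, as KRT18 with KRT8 in simple epithelia such as hepatocytes. Hair keratins build the cortex and cuticle of the hair shaft, where the small keratin-associated proteins crosslink them, while mesenchymal cells such as stellate cells are known for vimentin filaments instead.

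At 2 and at 4 days the stiff libraries of KRT34 and KRTAP2-3 all lay above the soft ones, while none of the other 7 genes passed the test of stiffness at either day. KRT34, a type I hair keratin, was 1.87-fold higher on the stiff matrix at 2 days and 2.696-fold higher at 4 days. KRTAP2-3 was 1.89-fold higher at 2 days and 4.94-fold higher at 4 days. KRT34 fell between 2 and 4 days on both matrices, whereas KRTAP2-3 fell on the soft matrix and had a change of 0.44 on the log2 scale, not called, on the stiff matrix.

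The sequences just upstream of KRT34 and KRTAP2-3 are shown because these genes were chosen for their rise on the stiff matrix. Those of their neighbors KRT33B, KRTAP2-1, KRTAP2-2 and KRTAP2-4 are shown because they are read beside them below. Each is 80 bases on the minus strand of GRCh38.p14 from RefSeq, written 5′ to 3′, with the TATA motif (TATAAA) in capitals. KRT34 was read from chr17:41382318-41382397, KRT33B from chr17:41369822-41369901, KRTAP2-3 from chr17:41060123-41060202, KRTAP2-1 from chr17:41047340-41047419, KRTAP2-2 from chr17:41055284-41055363 and KRTAP2-4 from chr17:41065918-41065997.
KRT34: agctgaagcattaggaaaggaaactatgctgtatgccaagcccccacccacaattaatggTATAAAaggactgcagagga
KRT33B: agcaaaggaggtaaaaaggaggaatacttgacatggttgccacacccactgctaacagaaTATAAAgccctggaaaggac
KRTAP2-3: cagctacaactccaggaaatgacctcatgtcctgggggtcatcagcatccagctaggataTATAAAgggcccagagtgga
KRTAP2-1: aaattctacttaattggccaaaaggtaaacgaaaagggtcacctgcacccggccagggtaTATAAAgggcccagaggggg
KRTAP2-2: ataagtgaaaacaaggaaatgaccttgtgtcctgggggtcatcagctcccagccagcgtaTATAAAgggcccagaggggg
KRTAP2-4: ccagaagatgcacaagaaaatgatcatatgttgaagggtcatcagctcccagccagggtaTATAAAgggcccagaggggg

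The motif starts 31 bases before the annotated transcription start in KRT34 and 28 bases before it in KRTAP2-3 and KRT33B. Over 40 bases aligned at this motif, KRTAP2-3 had the same base as KRTAP2-1 at 32 positions, as KRTAP2-2 at 33 and as KRTAP2-4 at 34, whereas KRT34 and KRTAP2-3 shared 17. The bases of the motif itself are among the 40 and match in every pair by this alignment. Promoters (250 bases before to 50 after the start) were in the RefSeq table for 3 of the 9 genes, KRT8, KRT34 and KRTAP2-3, and for 14 tested keratin and keratin-associated protein genes together. TATAAA on either strand was in 12 of these 14, the 8 keratin-associated ones included, against 11.5% of 35116 promoters of the same length. The AP-1 motif TGANTCA, searched on both strands as well, was in 1 of the 14 (KRTAP4-12) against 7.71% of all promoters, and the TEAD motif GGAATG in 1 (KRT8) against 14% of all. KRT34 and KRTAP2-3 held neither of these letters in this window.

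On GRCh37 (GENCODE), the type II genes lie on chromosome 12: KRT80 at 52562780 to 52585798, KRT7 at 52626304 to 52645970, KRT81 at 52679697 to 52685318 and KRT8 at 53290971 to 53343738, together with the type I gene KRT18 at 53342655 to 53346690. The other 4 genes lie on chromosome 17, all on the minus strand: KRTAP2-3 at 39215492 to 39216366, KRT34 at 39533921 to 39538558, KRT19 at 39679869 to 39684560 and KRT17 at 39775694 to 39781094. KRTAP2-3 and KRT34 are 318 kb apart. KRT8 and KRT18 overlap on opposite strands with 525 exon bases in common, KRT7 shares 282 exon bases with the antisense gene KRT7-AS, and KRT17 shares 307 with an antisense RNA. The strand setting of the counting was not given in the sources used here, so reads in these stretches cannot be told apart.

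Some of these genes share stretches of sequence with copies or overlapping genes. Of all 100-base windows of the KRTAP2-3 transcript, 34.0% also occur in KRTAP2-1, KRTAP2-2 or KRTAP2-4, whose transcripts are 85.7% to 86.7% identical to it. For KRT81 the share was 30.3%, mostly with its neighbor KRT86, and for KRT18 it was 18.4%, with the overlapping KRT8. It was 8.32% for KRT7, 5.71% for KRT8, 0.912% for KRT34, 0.353% for KRT17, and 0 for KRT19 and KRT80. Counts of KRTAP2-3 and KRT81 are therefore uncertain as to copy, and both were also read as sums over their copies.

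The 2 libraries of the stiff matrix at 4 days stood apart from each other. Their median difference between replicates was 0.467 on the log2 scale over all tested genes, against 0.0942 to 0.207 in the other conditions. Within this condition the second library was above the first by 1.09 in KRT18, 1.02 in KRT7, 0.87 in KRT81 and 0.61 in KRT8 on the log2 CPM scale. KRT34 and KRT80 differed by less, with 0.15 and -0.17. Results at 4 days on the stiff matrix are therefore given with each of these libraries left out where it matters.

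Levels of different genes are compared per length, in FPKM as deposited. KRT8 had the highest mean over the 8 libraries, 218 FPKM, and KRT18 followed with 188, but the ranges overlapped, 145 to 281 for KRT8 and 129 to 273 for KRT18. KRT81, a type II hair keratin, came next with 96.1 FPKM (80.2 to 146), and its highest library lay above the lowest of KRT8 and of KRT18. KRTAP2-3 averaged 49.1 FPKM (13.99 to 100.2) and KRT34 averaged 29.1 (11.4 to 47.9), with ranges that overlapped each other and that of KRT10, at 38.8.

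KRT7, a type II partner in simple ductal epithelia, followed at 7.95 FPKM (5.47 to 11.1), with no overlap with KRT34 above it or with KRT80 below it. KRT80, a type II epithelial keratin, averaged 4.47 FPKM (3.89 to 5.08). KRT17, a type I keratin of skin appendages and injured epidermis, averaged 0.526 FPKM, and KRT19, a type I keratin of ducts, 0.254. Their ranges overlapped, from 0.155 to 1.18 and from 0.0570 to 0.390.

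**Figure D1:**
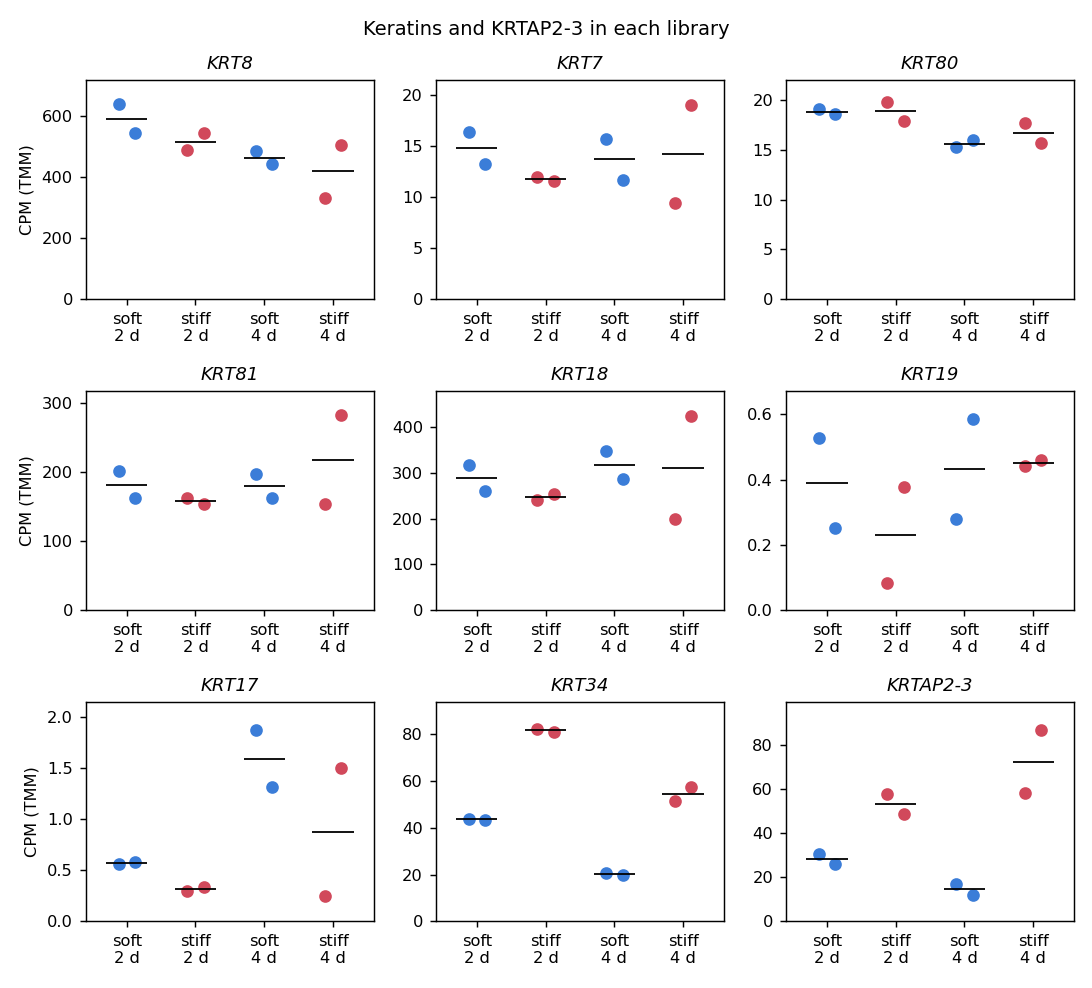
CPM (counts scaled to the library total and TMM factors) of each of the 9 genes by condition, where each point is 1 library and each line the mean of 2. The points of KRT34 and KRTAP2-3 on the stiff matrix (red) lie above those on the soft matrix (blue) at both days, and KRT7, KRT18 and KRT81 have their widest spread on the stiff matrix at 4 days.

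KRT34 had 43.9 and 43.4 CPM (counts scaled to the library total and TMM factors) on the soft matrix at 2 days and 82.2 and 81.1 CPM on the stiff matrix. At 4 days it had 20.5 and 19.97 CPM on the soft matrix and 51.7 and 57.5 CPM on the stiff matrix. All 4 conditions were separate in this gene, with the highest level on the stiff matrix at 2 days and the lowest on the soft matrix at 4 days. The log2 difference of stiff against soft was 0.90 (standard error 0.125) at 2 days and 1.43 (standard error 0.129) at 4 days. Without the first or the second library of the stiff matrix at 4 days, the latter was 1.52 or 1.36.

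KRTAP2-3 had 30.5 and 25.8 CPM on the soft matrix and 57.7 and 48.6 CPM on the stiff matrix at 2 days. At 4 days the soft matrix gave 17.1 and 12.2 CPM and the stiff matrix 58.1 and 86.6 CPM. The soft libraries were below the stiff ones at each day. The stiff libraries ran from 48.6 to 86.6 CPM, and the nearest of the 2 days were at 57.7 and 58.1 CPM. The log2 difference of stiff against soft was 0.92 (standard error 0.240) at 2 days and 2.30 (standard error 0.252) at 4 days, and without the first or second stiff library of 4 days the latter was 2.57 or 2.00.

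These values chose both genes, and nothing is read from the counts that follow. KRT34 and KRTAP2-3 were the 2 of 9 genes whose libraries were higher on the stiff matrix without overlap at both days, against 4.79% of all tested genes. A gene was called where its adjusted p was under 0.05 in the quasi-likelihood test of edgeR, adjusted over all tested genes by the method of Benjamini and Hochberg. At 2 days 0 of the 9 genes were called, against 0% of all genes. At an unadjusted p under 0.05 there were 2 of 9, against 2.82% of all, and DESeq2 called 1 and limma on FPKM 0. At 4 days 2 were called, both higher, against 0.247% of all genes in either direction and 0.0343% higher, and without any 1 of the 4 soft libraries 0 were called.

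With the counts of KRTAP2-1, KRTAP2-2, KRTAP2-3 and KRTAP2-4 summed, the log2 difference of stiff against soft was 0.88 at 2 days and 2.32 (standard error 0.236) at 4 days. KRTAP2-3 made up 61.3% to 90.8% of the summed counts. KRTAP2-1 and KRTAP2-2 had nearly equal counts in each library, 0 to 15 counts apart.

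**Figure D2:**
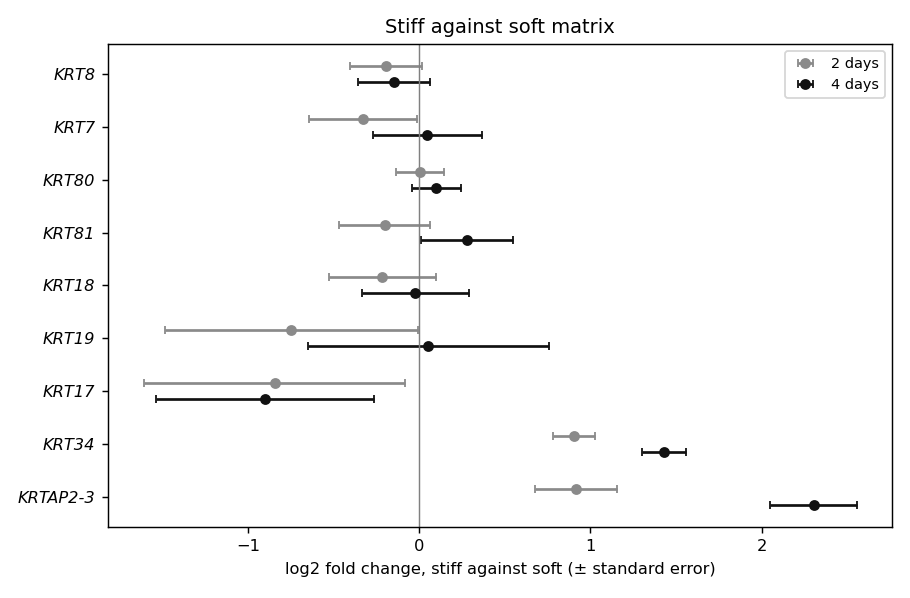
Log2 fold change of the stiff against the soft matrix for each gene at 2 days (grey) and 4 days (black), from the edgeR fit of all 8 libraries, with bars of 1 standard error. KRT34 and KRTAP2-3, which were chosen for this difference, lie at 0.90 to 2.30, and the other 7 genes lie between -0.90 and 0.28.

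The 7 genes that were not chosen for a difference between the matrices were tested. Over all 9 genes the median log2 difference of stiff against soft was -0.20 at 2 days and 0.05 at 4 days, beside 0.0081 and 0.020 over all tested genes. None of the 7 passed edgeR's test at 2 days, where each adjusted p was 0.9999, or at 4 days, where the adjusted p lay between 0.856 and 0.992. At an unadjusted p under 0.05 it was 0 of 7 at either day, and DESeq2 also called 0. At 2 days the libraries of KRT7, KRT8, KRT17, KRT18 and KRT81 were lower on the stiff matrix without overlap, 5 of 9 genes against 22.4% of all tested genes. The nearest soft and stiff libraries were almost tied in KRT8 (542.793 and 542.733 CPM) and close in KRT81 (163.2 and 162.4 CPM). KRT17 had at most 16 counts in a library at 2 days.

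KRT8 had 638 and 543 CPM on the soft matrix and 489 and 543 CPM on the stiff matrix at 2 days. At 4 days it had 485 and 442 CPM on the soft and 331 and 505 CPM on the stiff matrix, so the groups overlapped at 4 days. The log2 difference was -0.19 at 2 days (95% interval -0.68 to 0.29) and -0.15 at 4 days (-0.63 to 0.34). Without the first or second stiff library of 4 days the latter was 0.13 or -0.48.

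KRT18 had 316 and 261 CPM on the soft matrix and 242 and 255 CPM on the stiff matrix at 2 days. Its values at 4 days were 347 and 286 CPM on the soft matrix and 199 and 424 CPM on the stiff matrix. The 2 stiff libraries of 4 days lay on either side of both soft libraries. The log2 difference was -0.22 at 2 days (95% interval -0.94 to 0.51) and -0.02 at 4 days (-0.75 to 0.70). With 1 of the stiff libraries of 4 days left out, its sign followed the library that stayed, 0.43 without the first and -0.66 without the second.

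KRT81 behaved in the same way at 4 days, with 197 and 163 CPM on the soft and 154 and 283 CPM on the stiff matrix. At 2 days it had 202 and 163 CPM on the soft and 162 and 155 CPM on the stiff matrix. The log2 difference was -0.20 at 2 days (95% interval -0.82 to 0.42) and 0.28 at 4 days (-0.34 to 0.90). Without the first stiff library of 4 days it was 0.66 and without the second -0.21. Summed with KRT83 and KRT86, the difference was -0.21 at 2 days and 0.26 at 4 days.

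KRT7 had 16.4 and 13.2 CPM on the soft and 11.97 and 11.6 CPM on the stiff matrix at 2 days. At 4 days it had 15.7 and 11.7 CPM on the soft and 9.38 and 19.1 CPM on the stiff matrix, again with the stiff libraries outside the soft ones. The log2 difference was -0.33 at 2 days (95% interval -1.06 to 0.40) and 0.05 at 4 days (-0.69 to 0.78). Without the first or second stiff library of 4 days the latter was 0.48 or -0.54, and without scaling factors -0.097.

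Replicates of KRT80 differed by at most 0.168 on the log2 scale. It had 19.1 and 18.6 CPM on the soft and 19.8 and 17.9 CPM on the stiff matrix at 2 days. At 4 days the values were 15.3 and 16.0 CPM on the soft and 17.7 and 15.7 CPM on the stiff matrix. The groups overlapped at both days, and the log2 difference of stiff against soft was 0.0023 at 2 days (95% interval -0.32 to 0.33) and 0.10 at 4 days (-0.23 to 0.43).

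For KRT17 the counts themselves were 16 and 16 on the soft and 7 and 8 on the stiff matrix at 2 days. At 4 days they were 40 and 29 on the soft and 5 and 26 on the stiff matrix. The log2 difference of stiff against soft was -0.85 at 2 days (95% interval -2.61 to 0.92) and -0.90 at 4 days (-2.37 to 0.57). Without the first or second stiff library of 4 days the latter was -0.073 or -2.66.

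KRT19 had 15 and 7 counts on the soft and 2 and 9 on the stiff matrix at 2 days, and 6 and 13 on the soft and 9 and 8 on the stiff matrix at 4 days. No difference was detectable at this depth, and the 95% interval of the log2 difference at 2 days ran from -2.45 to 0.96.

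Culture time was compared next, as 4 against 2 days on each matrix in the same edgeR fit. On the soft matrix 2 of the 9 genes were called, KRT34 and KRTAP2-3, both lower at 4 days, against 27.4% of all genes in either direction and 13.3% lower. On the stiff matrix KRT34 was called, also lower, against 27.6% of all genes and 13.7% lower. These libraries also gave the stiffness comparison that chose KRT34 and KRTAP2-3, so their tests of time are not independent of that choice.

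From 2 to 4 days KRT34 fell by 1.11 on the log2 scale on the soft matrix (standard error 0.128, adjusted p = 0.00209, edgeR) and by 0.58 on the stiff matrix (standard error 0.125, adjusted p = 0.0141). On the stiff matrix the call was lost, at -0.57 and -0.59, without the first or second stiff library of 2 days (adjusted p = 0.108 and 0.118) and, at -0.58, with only the 4 stiff libraries fitted (adjusted p = 0.107). Its libraries were lower at 4 days without overlap on both matrices, as were those of KRT80, against 26% of all tested genes. KRT80 itself changed by -0.27 on the soft (adjusted p = 0.188) and -0.18 on the stiff matrix (adjusted p = 0.386).

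KRTAP2-3 fell by 0.94 on the log2 scale on the soft matrix (standard error 0.245, adjusted p = 0.0265, edgeR). On the stiff matrix its log2 change was 0.44 (standard error 0.238, adjusted p = 0.197), with both 4-day libraries above both 2-day libraries, the nearest at 58.1 and 57.7 CPM. Without the second stiff library of 4 days this change was 0.12, and without the first it was 0.70. The call on the soft matrix was kept without either stiff library of 4 days and lost without any 1 of the other 6 libraries. For the summed KRTAP2 copies the log2 change was -1.37 on the soft matrix (adjusted p = 0.00593) and 0.076 on the stiff matrix (adjusted p = 0.822).

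None of the other genes passed the test of time in this fit. KRT8 changed by -0.35 on the soft (adjusted p = 0.247) and -0.30 on the stiff matrix (adjusted p = 0.311). KRT17 changed by 1.47 on the soft matrix (adjusted p = 0.121), from 16 counts in each library to 40 and 29. When only the 4 libraries of the soft matrix were fitted, KRT8 (adjusted p = 0.0243, edgeR) and KRT17 (adjusted p = 0.00252) were called there. That fit called 3543 genes higher and 3718 lower of 14331 tested, so such calls were common over all genes. KRT18, KRT81, KRT7 and KRT19 changed by 0.13, -0.018, -0.11 and 0.15 on the soft and by 0.33, 0.46, 0.27 and 0.95 on the stiff matrix, with adjusted p between 0.230 and 0.967. The change on the stiff matrix depended on which stiff library of 4 days was left out. Without the first it was 0.69 in KRT7, 2.23 in KRT17, 0.77 in KRT18, 0.83 in KRT81 and -0.032 in KRT8. Without the second it was -0.34, -0.36, -0.33, -0.046 and -0.65 in the same genes.

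The change of the stiffness difference from 2 to 4 days was called by edgeR in 0 of 9 genes, against 0% of all genes. At an unadjusted p under 0.05 there were 2 of 9, KRT34 and KRTAP2-3, against 1.95% of all, and DESeq2 and limma on FPKM called 0. For KRT34 and KRTAP2-3, where it is built from the values that chose them, this change was 0.53 and 1.39 on the log2 scale.

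**Figure D3:**
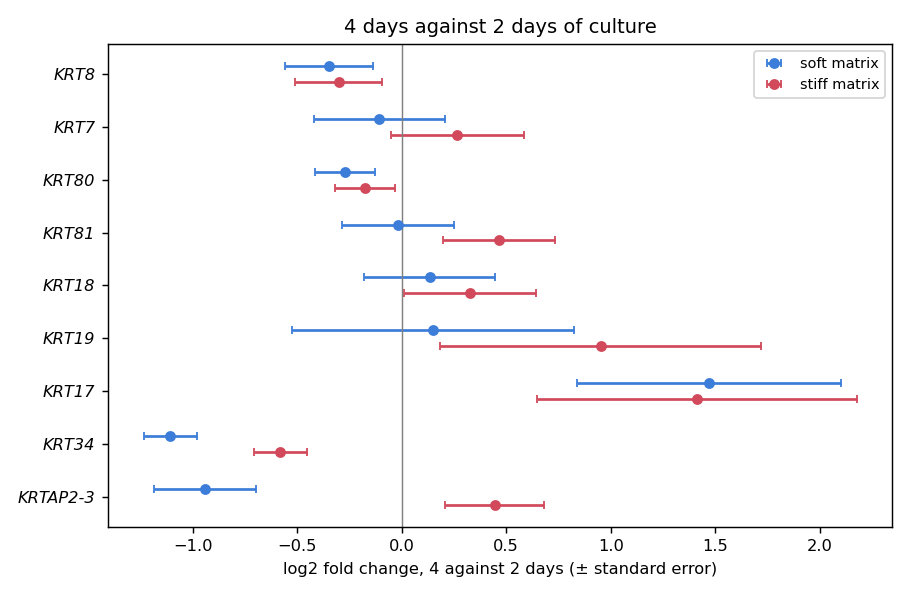
Log2 fold change of 4 against 2 days for each gene on the soft (blue) and the stiff matrix (red), from the edgeR fit of all 8 libraries, with bars of 1 standard error. KRT34 is below 0 on both matrices, at -1.11 and -0.58, and KRTAP2-3 lies at -0.94 on the soft and 0.44 on the stiff matrix.

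The keratins present as RNA can also be read as a mixture, again in FPKM. Type II keratins summed to 237 to 408 FPKM and type I keratins to 192 to 370 FPKM per library, a ratio of type II to type I of 1.04 to 1.47. KRT8 made up 57.3% to 71.2% of type II and KRT18 61.5% to 81.0% of type I. The ratio of KRT8 to KRT18 was 1.37, 1.41, 1.37 and 1.44 in the libraries of 2 days and 0.947, 1.05, 1.13 and 0.807 in those of 4 days, without overlap. No test was made on this ratio, and the 525 shared exon bases of both genes are part of it.

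KRT34 accounted for 9.25% and 10.9% of type I FPKM on the soft matrix at 2 days and for 18.7% and 18.2% on the stiff matrix. At 4 days its share was 4.28% and 5.07% on the soft and 15.6% and 8.95% on the stiff matrix. The lower share in the second stiff library went with its higher KRT18, not with a lower KRT34. KRT10, a type I keratin outside the 9 genes, made up 12.04% to 17.6% of type I. VIM, the vimentin gene, reached 921 to 2938 FPKM, and the summed keratins were 62.6% and 70.9% of it on the soft and 44.2% and 49.95% on the stiff matrix at 2 days, and 23.1% to 27.9% in the 4 libraries of 4 days.

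**Figure D4:**
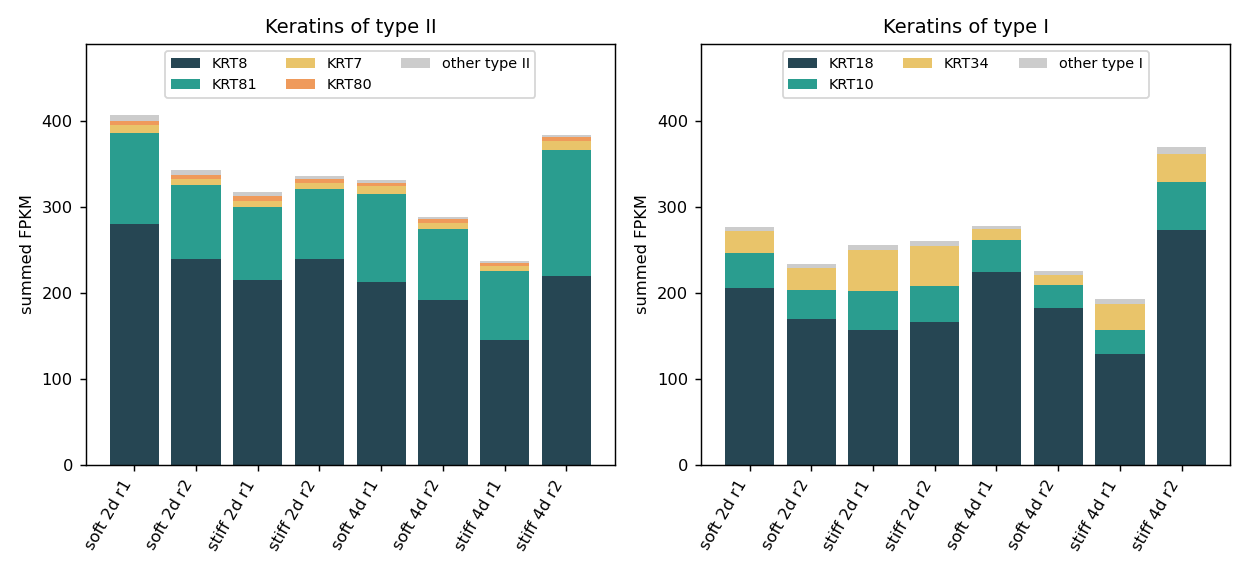
Summed FPKM of the type II (left) and type I (right) keratins in each of the 8 libraries, stacked by gene (r1 and r2 are the replicates). KRT8 and KRT18 form the largest blocks in each library, and the KRT34 block is taller on the stiff than on the soft matrix at each day.

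There were 55 keratin genes, of which 16 were tested and 11 had no count, and of 93 keratin-associated protein genes 8 were tested and 64 had no count. The tested keratin-associated genes all lie on chromosome 17, and the 4 KRTAP2 genes span 19339 bases there (GRCh37). On the stiff matrix at 4 days the other 7 of them were higher in both libraries, against 11.7% of all tested genes, and at 2 days 6 of 7 were, against 25.7%. None was called by edgeR, with adjusted p from 0.0634 to 0.270 at 4 days, where DESeq2 called 4 (KRTAP2-1, KRTAP2-2, KRTAP2-4 and KRTAP4-8). At an unadjusted p under 0.05 in edgeR there were 3 of 7 at 2 days, against 2.82% of all genes, and 7 of 7 at 4 days, against 6.93%. Only 7 of 92 such genes passed the filter on low counts, and KRTAP4-12 passed it through its 21 and 10 counts on the stiff matrix at 4 days. KRTAP4-8 and KRTAP4-9 also passed only with their stiff libraries. KRTAP4-8 had 5 to 17 counts on soft and 24 to 36 on stiff, and KRTAP4-9 had 2 to 11 and 12 to 22. KRTAP2-1, KRTAP2-2 and KRTAP2-4 share 53.0%, 46.5% and 48.1% of their 100-base windows with other KRTAP2 copies. They are thus not independent of KRTAP2-3, which was chosen for its rise on the stiff matrix. These counts of genes are therefore a description.

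KRTAP2-4 had 8.91 and 5.33 CPM on the soft and 14.3 and 12.4 CPM on the stiff matrix at 2 days, and 1.54 and 2.34 CPM on the soft and 9.33 and 7.54 CPM on the stiff matrix at 4 days. Its log2 difference of stiff against soft was 0.91 at 2 days and 2.12 at 4 days (adjusted p = 0.0634, edgeR). KRTAP2-1 fell on the soft matrix from 148 and 84 counts to 2 and 4, and KRTAP2-2 from 146 and 83 to 2 and 2, while on the stiff matrix at 4 days they had 45 and 26 and 37 and 21 counts. On these few soft counts, their log2 differences of stiff against soft at 4 days were 3.71 and 3.98 (adjusted p = 0.0653 and 0.0652, edgeR).

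Time was called in 3 of the other 7 tested keratin-associated genes on each matrix, against 27.4% of all genes on soft and 27.6% on stiff. The KRTAP2 copies share sequence, so their calls are not separate results. On the soft matrix KRTAP2-1, KRTAP2-2 and KRTAP2-4 were lower at 4 days (adjusted p = 0.00172, 0.00151 and 0.00618, edgeR). On the stiff matrix KRTAP2-1 and KRTAP2-2 were lower (adjusted p = 0.00882 and 0.00655) and KRTAP1-5 was higher, by 1.80 on the log2 scale (adjusted p = 0.0245). KRTAP2-3 thus had the most counts of the 4 KRTAP2 genes in every library, and its share of the summed KRTAP2 counts was 81.3% to 90.8% at 4 days against 61.3% to 69.4% at 2 days.

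**Figure D5:**
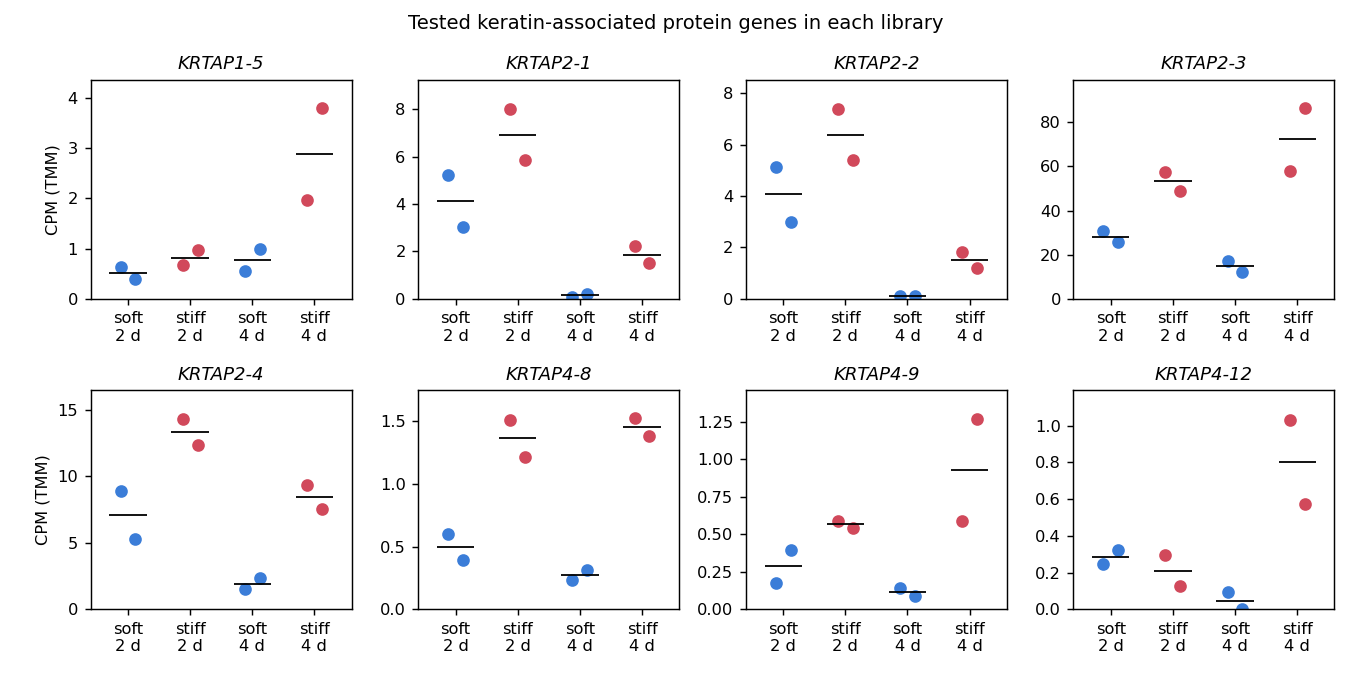
CPM (scaled by TMM factors) of the 8 tested keratin-associated protein genes by condition, where each point is 1 library and each line the mean of 2. KRTAP2-3 reaches 86.6 CPM and the others stay at or under 14.3 CPM, and at 4 days the stiff libraries (red) lie above the soft ones (blue) in all 8 genes.

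Among the other tested keratins, KRT33B, the type I hair keratin 7856 bases from KRT34, came closest to both. It had 3.27 and 3.27 CPM on the soft and 4.996 and 5.03 CPM on the stiff matrix at 2 days, and 1.68 and 2.30 CPM on the soft and 4.67 and 7.26 CPM on the stiff matrix at 4 days. The log2 difference was 0.61 at 2 days and 1.57 at 4 days (adjusted p = 0.104, edgeR). None of the 8 tested keratins outside the 9 genes was called for stiffness by edgeR, where 2 of 8 had an unadjusted p under 0.05 at either day (2.82% and 6.93% of all genes), and DESeq2 called KRT33B at 4 days. In the 4 of type I the median log2 difference was 0.32 at 2 days and 0.58 at 4 days. In the 4 of type II it was -0.46 at 2 days, with all 4 below 0. KRT3 passed the low-count filter only with its 20 and 12 counts on the soft matrix at 2 days, against 4 and 3 on the stiff matrix. Its value below 0, its place among the 2 of 8 at that day and its fall with time were thus set by the filter and are a description. At 4 days KRT86 was at -0.56 and KRT79 at -0.31, KRT83 had 1 and 3 counts on the soft and 5 and 9 on the stiff matrix, and KRT3 had at most 1 count in a library, so no median is given. With time, KRT222 was called higher on both matrices, by 1.89 and 2.38 on the log2 scale, and KRT15 was called lower on the soft matrix, by -1.45. KRT83 fell on the soft matrix from 66 and 33 counts to 1 and 3, and KRT3 from 20 and 12 to 0 and 0.

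Genes whose profile over the 8 libraries was most like KRT34 were found by the root mean square difference of mean-centered log2 CPM, among 12043 genes. They were EPHB1 (0.243), OPCML (0.244), FAM86JP (0.301), FOXD1 (0.325) and ADRA2C (0.326), where the median over all candidates was 0.784. For KRTAP2-3 they were KRT33B (0.383), KRT34 (0.455), HAS2 (0.515), FOLR3 (0.524) and EPHB1 (0.553), with a median of 0.960. KRT34 was thus second nearest to KRTAP2-3, while KRTAP2-3 was not among the 5 nearest to KRT34. Both genes were chosen for their rise on the stiff matrix in these same libraries, so their likeness was partly set by that choice and is a description.

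Genes that work with keratins and markers of cell types were read from lists, and edgeR called 0 of them for stiffness at either day. At an unadjusted p under 0.05 there were 2 of 5 tested epithelial genes at 2 days, against 2.82% of all genes. These were CLDN1 and SPINT1, lower on the stiff matrix by -0.94 and -1.81 on the log2 scale, and at -1.03 and 0.32 at 4 days. The hair, other filament, stellate and hepatocyte lists had 1 of 6, 11, 9 and 1 tested genes at 2 days. At 4 days there were 2 of 13 linker and desmosome genes, 1 of 5 epithelial, 1 of 2 cholangiocyte and 4 of 9 stellate genes, against 6.93% of all. COL3A1, COL1A2 and PDGFRB were lower on the stiff matrix, by -1.58, -0.70 and -0.66 on the log2 scale, and TAGLN was higher, by 0.78. DESeq2 called COL3A1 and none of the rest. The calls with time in these lists stand beside 27.4% of all genes on the soft and 27.6% on the stiff matrix. Of 17 other intermediate filament genes 11 were tested, and 4 were called for time on each matrix. With time on the soft matrix VIM, NES (nestin) and LMNB1 (a nuclear lamin) were called higher and IFFO1 lower, by 1.12, 2.02, 0.45 and -0.74 on the log2 scale, and the same 4 genes were called on the stiff matrix in these directions. LMNA, the lamin with the most reads, had 884 CPM on average and was not called. The median log2 change of the list was -0.20 on the soft and -0.18 on the stiff matrix, beside 0.016 and 0.028 over all tested genes.

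Of 23 genes of keratin linkers and desmosomes 13 were tested. For time 5 were called on soft and 6 on stiff, against 27.4% and 27.6% of all genes. The plakins PLEC and DST, which tie intermediate filaments to adhesions, were lower at 4 days by -1.01 and -1.25 on the soft and -1.55 and -1.46 on the stiff matrix. TCHP, a keratin-binding protein, was lower as well, by -0.76 and -0.77. PKP2, a desmosome plaque protein, was higher by 1.36 and 1.64, and DNAJB6, a chaperone that binds KRT18, by 0.49 and 0.55, each past the same test, and JUP was called higher on the stiff matrix only, by 0.49, with the difference between the matrices not called by edgeR.

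Markers were read for the cells that keratins usually mark. Of 18 epithelial identity genes 5 were tested, and their summed level was 8.73 to 9.28 and 6.79 to 7.64 CPM on soft and on stiff gels at 2 days and 11.6 to 14.02 and 8.54 to 9.85 CPM at 4 days. EPCAM and CDH1, which define epithelia, averaged 0.0870 and 0.0169 CPM, and GRHL2 was at 0. With time CLDN1 was called higher on both matrices and SPINT1 on the stiff matrix. The other genes of this list with the highest levels, GRHL1 and CLDN4, averaged 2.31 and 2.28 CPM and were not called.

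Hair follicle genes were at low levels, with HOXC13, S100A3 and LEF1 highest at 7.11, 6.73 and 6.51 CPM on average. Of 10 such genes 6 were tested, and LEF1 and GATA3 were called higher with time on both matrices. FOXN1, a regulator of hair keratin genes, had 2 counts in all libraries together.

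The stellate label was checked in the same way. Of 14 stellate and myofibroblast markers 9 were tested, with VIM, COL1A1 and TAGLN highest at 3557, 775 and 502 CPM on average, while DES, LRAT, HGF and DCN had 1 to 5 counts in all. VIM, ACTA2 and RGS5 were called higher with time on both matrices. Of the hepatocyte markers ALB averaged 0.104 CPM and HNF4A, TTR and FGB were at 0, while SERPINA1 averaged 6.91 CPM. Of 6 cholangiocyte markers other than keratins, SOX9 and SPP1 (33.8 and 1.995 CPM on average) were tested and called higher with time on both matrices, and CFTR was at 0. Of 6 macrophage markers, PTPRC was called higher and CSF1R lower with time on both matrices, CD68 averaged 101 CPM, and CD163 was at 0. Of 6 endothelial markers KDR and VWF (0.377 and 0.347 CPM) were tested and 0 called by edgeR in any comparison, also at an unadjusted p under 0.05, and LYVE1 was at 0. The part of these cells or markers in the keratin values was not tested. In bulk RNA, fewer cells of a type and less RNA per cell cannot be told apart.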

How the data were processed

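RNA-seq libraries of LX-2 cells were grouped by matrix and day from the sample labels. The authors trimmed reads with Trim Galore, mapped them to hg19 with STAR 2.7.1a and counted reads in genes with HTSeq, which gave the deposited counts. The deposited FPKM are these counts scaled by median-of-ratios size factors and by gene length, which was checked on the files. Annotation and strand setting were not given in the sources used here.

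Counts were analyzed in R 4.3.3 with edgeR 4.0.16, filterByExpr by condition (14570 of 25369 genes kept), TMM factors (0.870 to 1.08) and a quasi-likelihood fit of the 4 conditions on all 8 libraries. P-values were adjusted over all tested genes by the method of Benjamini and Hochberg. Standard errors are the log2 fold change over the square root of F. DESeq2 1.42.0 (the tool of the authors) and limma 3.58.1 on log2(FPKM + 1) and log2(FPKM + 0.1) were alternatives, as were RLE or no scaling factors, other low-count filters, fits of 4 libraries, a replicate block and leaving out each library. The scripts were tested on simulated data. CPM use TMM factors, and log2 CPM a prior count of 2. A library of this depth reads 3 counts as 0.106 to 0.173 CPM, so counting error dominates low genes, and 2 libraries per condition limit every comparison.

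All 9 genes were named, with every other tested keratin or keratin-associated gene and, from each other list, the called genes and the 3 with the highest mean CPM. The genes and lists were chosen with earlier results of these data known. Promoters came from RefSeq (GRCh38.p14) and other coordinates from GENCODE on GRCh37.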

Additional observations from a re-analysis of the deposited data

Results flagged for a closer look

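The change of KRTAP2-3 with time had opposite signs on the matrices, and only that on the soft matrix passed edgeR's test (-0.94, adjusted p = 0.0265, against 0.44, adjusted p = 0.197). Its libraries were lower at 4 than at 2 days on the soft matrix and higher on the stiff matrix, without overlap in either case. On the stiff matrix this was a near tie, 58.1 CPM at 4 days against 57.7 at 2 days. Without the second stiff library of 4 days the change there was 0.12. The difference between the changes was 1.39 on the log2 scale (standard error 0.342). The edgeR test of this difference gave an unadjusted p of 0.00379 and an adjusted p of 0.9997, and it uses the libraries by which KRTAP2-3 was chosen. With the KRTAP2 copies summed the difference was 1.44, made of a change of -1.37 on the soft and 0.076 on the stiff matrix.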

How the results depend on the processing

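Of 417 log2 fold changes of the 9 genes recomputed with other settings, 394 kept their direction and their side of the threshold, 6 came to pass it, 7 no longer passed it and 10 changed sign, and the cause was not tested. The changes of sign were in KRT80 at 2 days (-0.065 without scaling factors, -0.0095 with at least 10 counts in every library, -0.0074 with only the 4 libraries compared), in KRT7 (-0.097), KRT19 (-0.066) and KRT80 (-0.016) at 4 days and in the change of the stiffness difference of KRT8 (-0.027) without scaling factors, and in KRT7 at 4 days with limma on log2(FPKM + 1), with or without the filter (-0.0079), and on log2(FPKM + 0.1) (-0.016). Without scaling factors the median of all genes moved to -0.059 at 2 days and -0.095 at 4 days. KRT17 and KRT19 gave no value with at least 10 counts in every library.

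The number of the 9 genes called for stiffness at 2 days was 0, and became 1 with DESeq2, 2 with only the 4 libraries compared and 1 with limma without a filter. At 4 days it was 2, and became 0 with only the 4 libraries, 1 with the replicate block and 1 with limma without a filter. With time it was 2 on the soft matrix (4 with only the 4 libraries, 1 with the block, 1 with limma without a filter) and 1 on the stiff matrix (0 with only the 4 libraries). The fit of only the 4 soft libraries called 3543 genes higher and 3718 lower of 14331 tested. Deviations of same-numbered replicates had a correlation across genes of -0.036 for soft and stiff libraries of 2 days and -0.490 for those of 4 days. Whether the numbers mark a shared batch was not tested. A block with the numbers crossed at 4 days, added after the data were seen, called 2 of the 9 genes and 62 genes in all for stiffness at 4 days. Without a block it was 36, and with the numbers as labelled 3 were higher and 11 lower. With only the 4 libraries of 4 days and a block, 31 genes were called as labelled and 186 crossed.

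With 1 library left out, its partner is assumed to vary like the other groups. The number called was then 0 to 2 and 0 to 4 for stiffness at 2 and 4 days, 1 to 4 and 0 to 6 for time on soft and stiff, and 0 to 5 for the change of the stiffness difference. Each highest number came without a stiff library of 4 days, without either of them for stiffness at both days and time on soft, and without the first for time on stiff (2 without the second) and for the change of the stiffness difference (0 without the second). At 4 days 0 were called without either soft library of 2 or of 4 days. On stiff, the change of KRT34 with time was no longer called without either stiff library of 2 days, at -0.57 and -0.59 against -0.58. Of 360 values 33 changed sign. For stiffness these lay at -0.073 to 0.076 in KRT80 at 2 days, and at 4 days at -0.54 to 0.48 in KRT7, -0.48 to 0.13 in KRT8, -0.66 to 0.43 in KRT18, -0.36 to 0.68 in KRT19 and -0.21 to 0.66 in KRT81. For time on soft they lay at -0.36 to 0.088 in KRT7, -0.040 to 0.28 in KRT18, -0.47 to 0.77 in KRT19 and -0.19 to 0.14 in KRT81, and on stiff at -0.34 to 0.69 in KRT7, -0.36 to 2.23 in KRT17, -0.33 to 0.77 in KRT18 and -0.046 to 0.83 in KRT81. For the change of the stiffness difference they lay at -0.20 to 0.81 in KRT7, -0.27 to 0.33 in KRT8, -1.80 to 0.78 in KRT17, -0.44 to 0.65 in KRT18 and -0.0032 to 0.87 in KRT81.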
